A study of Mus musculus with 4 samples.

Results

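The DEAD and DEAH box RNA helicases were taken as every gene whose symbol in the deposited rlog table began with Ddx or Dhx and a number. There were 49 of them among the 9546 genes of that table, 33 with a Ddx and 16 with a Dhx symbol. Each was found in the count table, 1 of them (Ddx39a) by a synonym, and each reached the minimum of 10 counts over all libraries that the table had been filtered on. They were grouped by their known roles into 16 nucleolar helicases, 15 of splicing, 9 of translation, export and decay of messenger RNA, 3 of the sensing of foreign nucleic acids and 6 others.

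Messenger RNA was measured in CD4+ T cells from the spleens of Tg4 Nr4a3-Tocky IL-10 GFP mice. All mice carried the Tg4 T cell receptor, which recognises a peptide of myelin basic protein, a Timer reporter under Nr4a3 control, which marks recent receptor signalling, and an EGFP reporter of Il10, and all had received 4 mg/kg of the peptide [4Y]-MBP in PBS under the skin 24 h before. The sorted cells were positive for Timer and differed in the Il10 reporter, giving 2 Il10-EGFP+ and 2 Il10-EGFP− libraries. Mice of both sexes were used in the study, and their age and the sex of the mouse behind each library are not given in the sources used here. A further pair of libraries had been removed by the authors as an outlier and was not analysed here.

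Sequencing started from transcript 3′ ends, so that counts did not scale with gene length. The libraries were shallow, with between 644679 and 730330 counts each, and 9608 genes were tested with the edgeR quasi-likelihood method. At a Benjamini-Hochberg adjusted p under 0.05, 393 genes differed between the populations, 226 of them higher and 167 lower in Il10-EGFP+ T cells. Where 2 pairs of values are set against each other in what follows, the Il10-EGFP− replicates 1 and 2 come first and the Il10-EGFP+ replicates 1 and 2 follow. The 7 T cell markers examined were above 3 counts in each library and summed to 1773 and 1711 against 2370 and 2349 CPM (counts relative to library size, scaled by TMM), with 1 called higher. The G2/M cell cycle genes moved with the populations, with summed levels of 2569 and 2542 against 5044 and 4832 CPM and 7 of 12 genes called higher. B cell markers summed to 115.4 and 195.5 CPM against 456.3 and 535.2, with 4 of 7 tested genes called higher (Cd22, Ighm, Igkc and Jchain). Cd79a and Cd79b, of the same list, had fewer than 10 counts over all libraries and were not tested. Myeloid markers summed to 111.3 and 138.6 CPM against 385.0 and 200.5, with 2 of 9 called higher, and CD8 or NK markers to 46.1 and 84.6 against 93.5 and 102.4, with 1 of 5 called higher. The part of any of these in the helicase values was not tested.

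RNA helicases of these families use ATP to open short RNA duplexes or to strip proteins from RNA, and they are named after the amino acids of their ATPase motif. In the nucleolus they help to cut, fold and release ribosomal RNA as ribosomal subunits are built, a process that T cells are known to raise strongly when they leave rest and grow. Others drive the steps of the spliceosome, load messenger RNA onto export factors, start translation, or recognise viral RNA in the cytosol.

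Most helicase transcripts had somewhat lower values in Il10-EGFP+ T cells, and 1, that of the nucleolar helicase Ddx21, passed the test. Of the 49 helicases, 33 had a negative and 16 a positive log2 fold change (log2FC, Il10-EGFP+ over Il10-EGFP−), with a median of -0.18 against 0.0 over all genes tested. The 1 call, toward lower values, is 2.04% of the helicases, while 4.09% of all genes tested were called, 1.74% lower and 2.35% higher. With the replicate number as a block, 3 helicases were called in edgeR (Ddx21, Ddx39b and Ddx1) and 1 in DESeq2 (Ddx21). The same block gave 560 calls in edgeR and 39 in DESeq2 among all 9608 genes tested. At an unadjusted p under 0.05 there were 10 helicases, 8 lower and 2 higher, or 20.4%, against 15.5% of all genes (7.49% lower and 7.96% higher). Both Il10-EGFP+ libraries lay below both Il10-EGFP− libraries for 21 helicases and above them for 5. Over all genes tested such a lack of overlap was found for 22.3% in each direction. Among the 34 helicases with at least 100 counts over the libraries, a minimum chosen after the values were seen, 20 lay lower without overlap and 1 higher, where the shares over the 4357 genes with that many counts were 25.6% lower and 24.3% higher. In bulk samples of this kind, fewer cells that express a gene and less of its RNA per cell cannot be told apart.

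The reads of all 49 helicases together came to 9178 and 9023 CPM in the Il10-EGFP− libraries and to 7584 and 7531 CPM in the Il10-EGFP+ libraries, a ratio of 0.83 between the means. Ddx21 held between 20.4 and 26.3% of these reads in each library. The nucleolar class summed to 3710 ± 178 against 2817 ± 67.5 CPM (SD, n = 2 libraries each), a ratio of 0.759 that rested on Ddx21. Without Ddx21 the class stood at 1457 ± 13.7 against 1259 ± 98.1 CPM, a ratio of 0.865. With all their genes kept, the ratio was 0.848 for translation, export and decay and 0.885 for splicing. The splicing class summed to 3617 ± 209 against 3200 ± 79.6 CPM (SD, n = 2 each). Most of this fall was in Ddx39b alone, at 1419 against 1081 CPM, so the splicing ratio rested largely on that gene. The class of translation, export and decay summed to 1066 ± 47.0 against 904.3 ± 34.3 CPM (SD, n = 2 each). In the nucleolar, splicing and translation classes both Il10-EGFP+ sums were the lower ones. The ratio was 0.881 for sensing and 0.974 for the other helicases, whose libraries were interleaved. These sums are weighted toward the genes with most reads and were not tested.

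**Figure D1:**
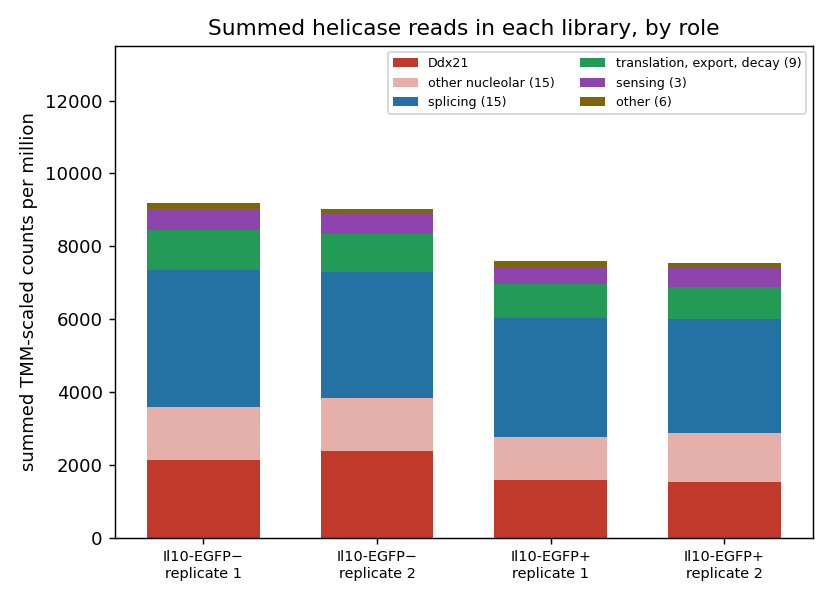
Summed TMM-scaled CPM of the helicases (vertical axis) in each of the 4 libraries, stacked by role, with Ddx21 drawn apart from the 15 other nucleolar helicases. The whole stack is at 9178 and 9023 in the Il10-EGFP− and at 7584 and 7531 in the Il10-EGFP+ libraries, and the Ddx21 part goes from 2138 and 2370 to 1580 and 1536.

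Ddx21 (ENSMUSG00000020075; chromosome 10 of GRCm38, 62580251 to 62602281, minus strand) encodes a nucleolar helicase that acts in the transcription of ribosomal RNA and in its processing with small nucleolar RNAs. Its counts were 1575 and 1624 against 997 and 1065, or 2138 and 2370 against 1580 and 1536 CPM. The populations did not overlap, and each library differed from its replicate by much less than from the other population. By level it was the 40th of the 9608 genes tested. Its log2FC was -0.53 (standard error 0.12, 95% interval -0.77 to -0.30, adjusted p = 0.00276 by the Benjamini-Hochberg method, edgeR), so that Il10-EGFP+ cells held 0.691 times the level of Il10-EGFP− cells. DESeq2's Wald test gave an adjusted p of 0.00101. Without Il10-EGFP+ replicate 2, where the remaining library is assumed to vary like the other population, the log2FC was -0.51 and the adjusted p 0.0792, while the call stood with each of the other libraries left out. On the deposited rlog scale, which draws values toward a gene's mean, the difference was -0.45, the lowest of the 49.

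The promoter of Ddx21 is shown because it belongs to the helicase that passed the test. The 250 bases before its start in RefSeq (GRCm38.p6, chr10:62602299-62602548, minus strand) held neither the E-box CACGTG, which Myc and related factors bind, nor a pair of GAAA runs with any 2 bases between them, the core of the interferon-stimulated response element.
Ddx21: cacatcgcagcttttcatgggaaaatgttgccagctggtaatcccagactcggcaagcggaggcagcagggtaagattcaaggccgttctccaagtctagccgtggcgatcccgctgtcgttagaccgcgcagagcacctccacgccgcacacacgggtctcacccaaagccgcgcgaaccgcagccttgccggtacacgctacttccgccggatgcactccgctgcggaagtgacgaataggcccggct

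Ddx50 is the closest relative of Ddx21 and its neighbour on the same strand of chromosome 10 (62615895 to 62651218). It had 29 and 40 counts against 25 and 42, with values of the populations interleaved. Its log2FC was 0.05 (95% interval -0.58 to 0.68, adjusted p = 0.981, edgeR). The interval is wide and takes in the change of Ddx21, and the difference between these relatives was not tested. The ratio of Ddx21 to Ddx50 counts was 54.3 and 40.6 against 39.9 and 25.4.

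Of the 16 nucleolar helicases, 11 had a negative log2FC and 9 lay lower in Il10-EGFP+ T cells without overlap, while none lay higher without overlap, against 22.3% of all genes tested in each direction. Their median was -0.22, and -0.20 without Ddx21. Over the alternative settings this median was lowest without Il10-EGFP+ replicate 2, at -0.50, and highest in limma on the rlog values, at -0.11. Apart from Ddx21 none passed the test in edgeR, DESeq2 or limma. In edgeR 2 of these 15 (13.3%) had an unadjusted p under 0.05, both of them lower, where 15.5% of all genes tested had one, 7.49% lower.

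Among the nucleolar helicases of the small subunit, Ddx10, whose yeast relative releases a small nucleolar RNA from the early ribosomal precursor, had 89 and 77 counts against 46 and 73. The Il10-EGFP+ libraries were both lower but far apart, and the log2FC was -0.38 (standard error 0.22, adjusted p = 0.445, edgeR). Ddx52 is also needed for the small subunit. It had 99 and 67 counts against 73 and 84, a log2FC of 0.03 (adjusted p = 0.983), and its populations overlapped. Ddx47, which acts on the precursor of the small subunit RNA, had 91 and 74 counts against 47 and 48, and was the nucleolar helicase nearest to the threshold after Ddx21. Its populations did not overlap, and its log2FC was -0.69 (standard error 0.23, adjusted p = 0.0795 in edgeR and 0.533 in DESeq2). Over the settings other than left-out libraries and replicate blocks its adjusted p ran from 0.0623 to 0.533.

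Among those of the large subunit, Ddx18 had 108 and 101 counts against 76 and 93, a log2FC of -0.21 (adjusted p = 0.702, edgeR). Its transcript end shares sequences of 50 bases with the pseudogene Gm16433, which had at most 1 count in a library. Ddx27, which works with a protein complex on the large subunit RNA, had 213 and 216 counts against 151 and 197 and a log2FC of -0.20 (adjusted p = 0.607). For both genes the populations did not overlap, by margins smaller than the gap between the Il10-EGFP+ replicates. Ddx56 had 37 and 33 counts against 31 and 24, a log2FC of -0.24 (adjusted p = 0.813), with overlap. The most abundant nucleolar helicase that did not lie lower was Ddx24, at 156 and 190 counts against 167 and 179, where the log2FC was 0.10 (95% interval -0.23 to 0.43, adjusted p = 0.866).

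The lowest log2FC of the nucleolar class was that of Ddx54, a further large subunit factor, with 49 and 29 counts against 19 and 23. The value was -0.78 (standard error 0.34, adjusted p = 0.221, edgeR), and without Il10-EGFP− replicate 1 it was -0.41. Ddx31, Ddx51 and Dhx33 had log2FCs of -0.64, -0.60 and -0.53, each without overlap and with adjusted p-values of 0.382, 0.416 and 0.388. Ddx49, Ddx55 and Dhx37 overlapped between the populations, with values of -0.13, 0.0039 and 0.24. Dhx37, which frees a small nucleolar RNA from the small subunit precursor, followed the replicate number rather than the population, at 2 counts in both replicate 1 libraries and at 14 and 16 in the replicate 2 libraries.

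**Figure D2:**
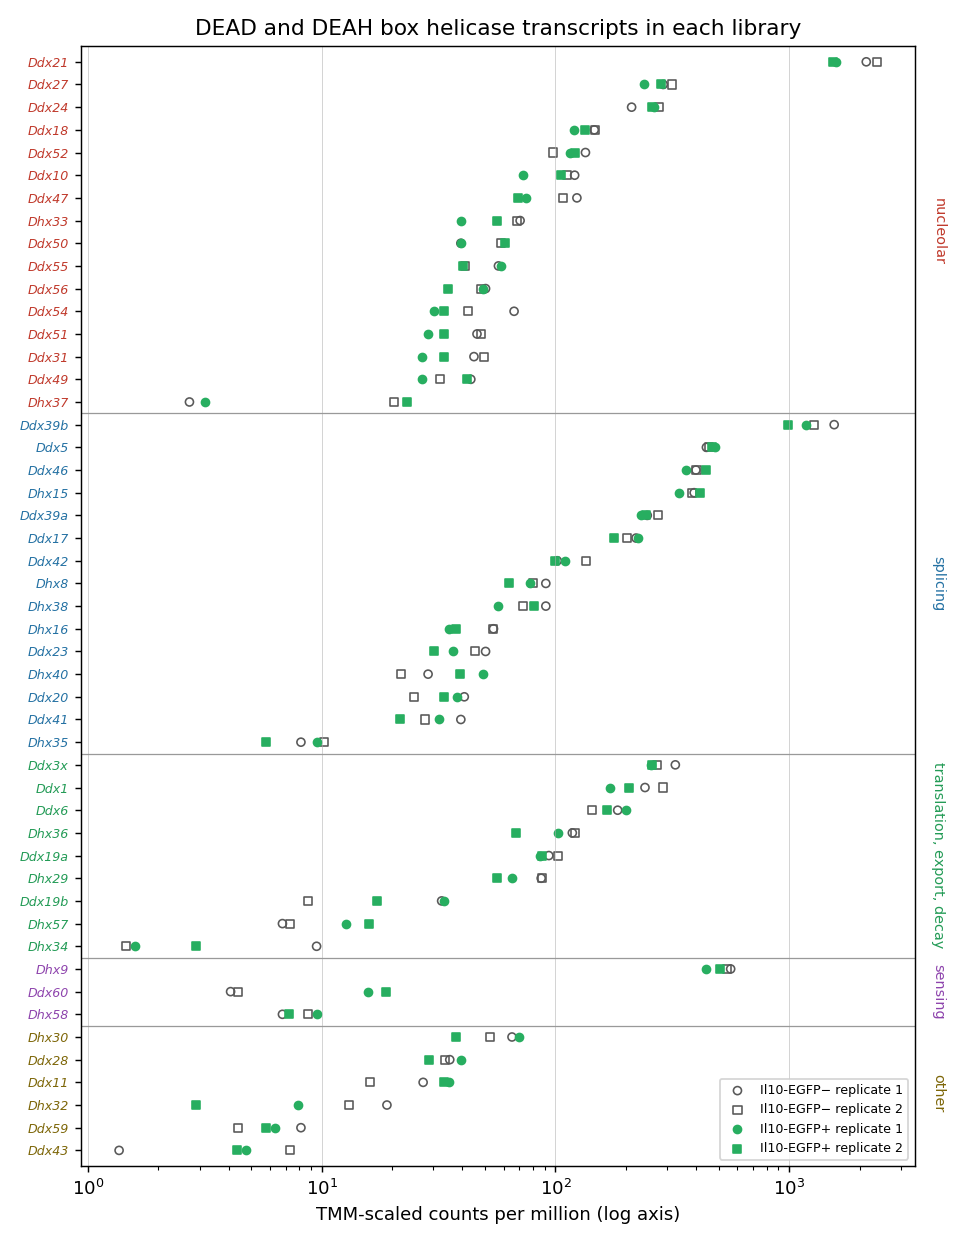
Level of each of the 49 helicases in TMM-scaled CPM (horizontal log axis), with open symbols for the Il10-EGFP− and filled symbols for the Il10-EGFP+ libraries, and genes grouped by role and ordered by mean level. The filled symbols of Ddx21, at 1580 and 1536, lie left of the open ones at 2138 and 2370, while those of Ddx60, at 15.8 and 18.8, lie right of the open ones at 4.07 and 4.38.

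None of the 15 splicing helicases passed the test as designed or in DESeq2, and 2 (13.3%) had an unadjusted p under 0.05 in edgeR, 1 in each direction, against 15.5% of all genes tested. The class had 11 negative and 4 positive values with a median of -0.18. Ddx39b, which joins the early spliceosome and hands messenger RNA to export factors, was by far the most abundant, with 1148 and 877 counts against 742 and 683, or 1558 and 1280 against 1176 and 985.3 CPM. Both Il10-EGFP+ libraries were lower, but the replicates of each population differed widely. Its log2FC was -0.39 (standard error 0.13, adjusted p = 0.0653, edgeR), and over the settings other than left-out libraries and replicate blocks the adjusted p ran from 0.0125 in limma voom to 0.195 in DESeq2. It was called in 6 of 15 alternatives. In edgeR its adjusted p was 0.0397 with library size only, 0.0444 with no filter on low counts, 0.034 with at least 10 counts in every library and 0.00342 with the replicate block, while DESeq2 with the block gave 0.197. With a library left out it ran from 0.0147, without Il10-EGFP− replicate 2, to 0.534, without Il10-EGFP+ replicate 2. Ddx39b was thus on either side of the threshold according to the scaling, the filter, the block and the libraries used.

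The closest relative of Ddx39b, Ddx39a, had 182 and 188 counts against 146 and 169 and a log2FC of -0.13 (95% interval -0.46 to 0.20, adjusted p = 0.791). Ddx5, a cofactor of splicing and transcription, had 326 and 311 counts against 303 and 323, or 442.5 and 453.8 against 480.1 and 466.0 CPM, slightly higher in both Il10-EGFP+ libraries, with a log2FC of 0.08 (95% interval -0.20 to 0.36, adjusted p = 0.877). Its relative Ddx17 had a log2FC of -0.07 (95% interval -0.42 to 0.28), and the ratio of Ddx5 to Ddx17 counts lay between 2.00 and 2.60 in the 4 libraries. Ddx46, which prepares the branch site, had 294 and 275 counts against 228 and 307 and a log2FC of 0.0093 (95% interval -0.28 to 0.30). For Ddx39a, Ddx5, Ddx17 and Ddx46 the 95% intervals lay within a 2-fold change in both directions. Ddx39a overlaps exons of Adgre5 on the other strand, which had 54 and 45 counts against 49 and 65, and a pseudogene, Gm12183, shares sequence with the end of Ddx5 and had at most 2 counts in a library.

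The largest absolute log2FC of the class was that of Dhx40, listed here with the splicing helicases, which had 21 and 15 counts against 31 and 27. It was 0.79 (standard error 0.37, adjusted p = 0.272, edgeR), without overlap. The helicases that act in turn on the assembled spliceosome lay on the other side, with log2FCs of -0.52 for Ddx23, -0.58 for Dhx16, -0.25 for Dhx38 and -0.28 for Dhx8, and adjusted p-values between 0.402 and 0.741. Dhx15, which takes the spliceosome apart, was near 0 at -0.04 (95% interval -0.34 to 0.26). Ddx20, Ddx41, Ddx42 and Dhx35 ranged from -0.34 to 0.11 and overlapped between the populations.

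Of the 9 helicases of translation, export and decay, none was called by edgeR, DESeq2 or limma without a block. In edgeR 3 had an unadjusted p under 0.05, all of them lower, where 15.5% of all genes tested had one, 7.49% lower. Without overlap 5 lay lower and 1 higher, against 22.3% of all genes tested in each direction. Ddx3x, which helps ribosomes to scan structured messenger RNA, had 240 and 187 counts against 162 and 180 and a log2FC of -0.21 (adjusted p = 0.578). Its relative on the Y chromosome, Ddx3y, had 0 counts in each library and is not among the 49. Ddx1, a part of the ligase complex that joins the spliced ends of transfer RNA, had 178 and 198 counts against 108 and 143. Its log2FC was -0.49 (standard error 0.17, adjusted p = 0.0992 in edgeR and 0.505 in DESeq2), and its populations did not overlap. With the replicate block the adjusted p was 0.0376 in edgeR and 0.815 in DESeq2.

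Ddx6, which works in translational repression and decapping, had 136 and 98 counts against 126 and 115, a log2FC of 0.15 (adjusted p = 0.789), with overlap. Dhx36, which unwinds G-quadruplexes, and Dhx29, a factor of translation initiation, had values of -0.49 and -0.53 with adjusted p-values of 0.266 and 0.305 and no overlap. The nuclear pore helicases Ddx19a and Ddx19b had log2FCs of -0.17 and 0.26, and Ddx19b varied within populations from 24 to 6 and from 21 to 12 counts. Dhx34, a factor of nonsense-mediated decay, had the largest absolute value of the class on the fewest counts. With 7 and 1 counts against 1 and 2, its ratio of Il10-EGFP+ to Il10-EGFP− was 0.403, with an exact (Clopper-Pearson) 95% interval of 0.0688 to 1.68 that covers counting error only, and without Il10-EGFP− replicate 1 its log2FC turned positive at 0.57. Dhx57 had 5 and 5 counts against 8 and 11 and a log2FC of 1.01 (adjusted p = 0.52).

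**Figure D3:**
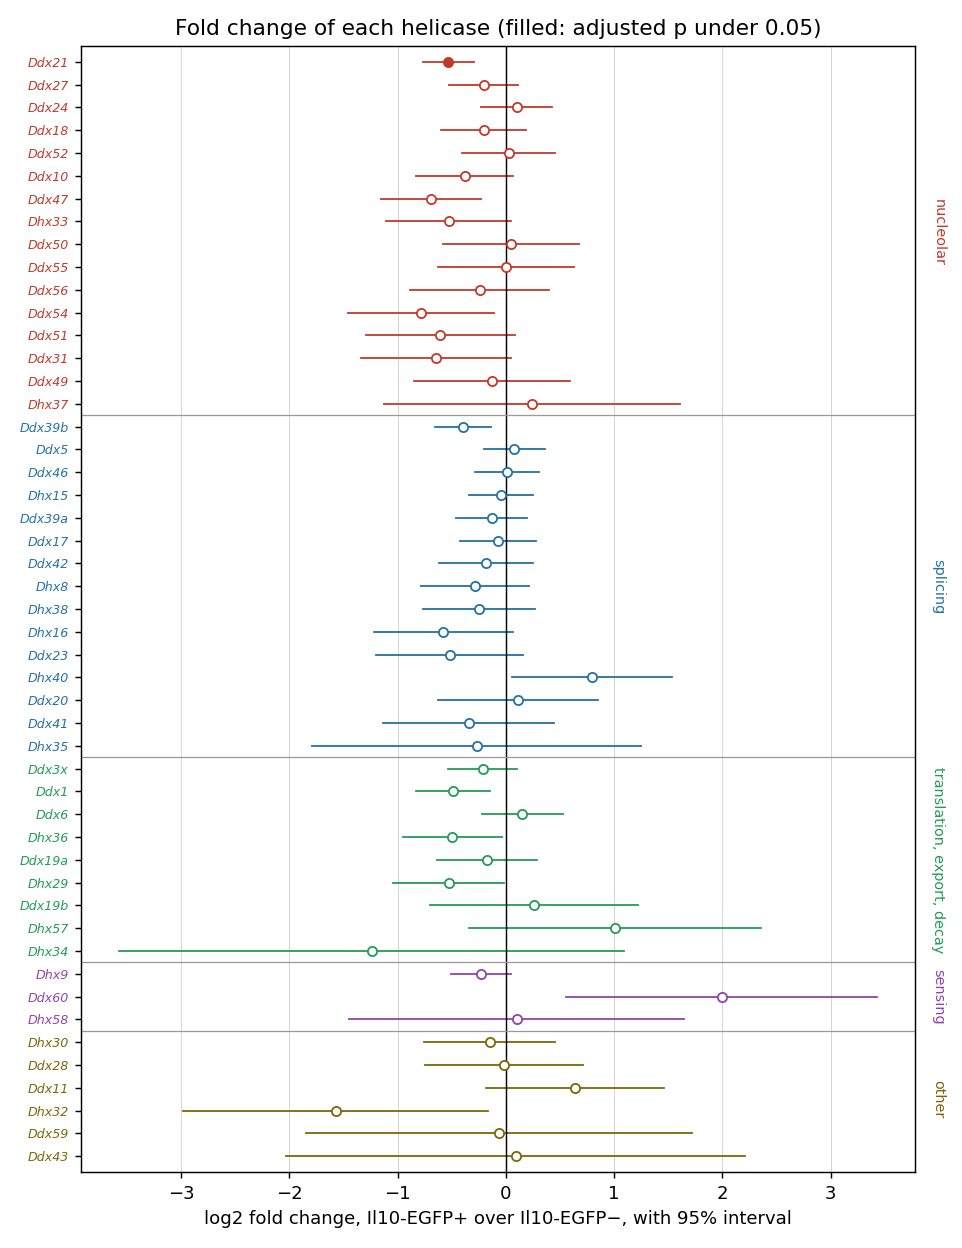
Log2 fold change of each helicase, Il10-EGFP+ over Il10-EGFP− (horizontal axis), with its 95% interval from the edgeR fit, grouped by role in the order of mean level. The filled point, Ddx21 at -0.53, marks the 1 helicase with an adjusted p under 0.05, and intervals widen downward in each group as counts become few.

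The highest log2FC of the family in the fit as designed was that of a sensing helicase on few counts. Of the 3 in this class none was called in edgeR, DESeq2 or limma, where edgeR called 4.09% of all genes tested. An unadjusted p under 0.05 in edgeR was found for 1 of the 3, against 15.5% of all genes tested. Ddx60, an interferon-induced helicase of antiviral responses, had counts of 3 and 3 against 10 and 13. The libraries of each population lay close together and far from those of the other. The ratio of counts was 4.12 (exact 95% interval 1.63 to 12.4, counting error only), the fitted log2FC was 1.99 (standard error 0.71), and the adjusted p was 0.105 in edgeR, so that Ddx60 did not pass the test. DESeq2 gave no adjusted p for it. With each library left out in turn the log2FC stayed between 1.86 and 2.11. Ddx60 was not the highest in every setting. Without Il10-EGFP− replicate 2 it was at 2.04, below Dhx37 at 2.23, and on the rlog scale its difference of 0.131 was below that of Dhx40 at 0.157.

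Dhx58, which encodes LGP2, a regulator of the cytosolic RNA sensors, had 5 and 6 counts against 6 and 5, a log2FC of 0.10 (95% interval -1.44 to 1.65), which is too wide to show a difference. Dhx9, a nuclear helicase of transcription and RNA processing that also binds foreign nucleic acids, was the only abundant one of this class. It had 414 and 373 counts against 278 and 349 and a log2FC of -0.23 (95% interval -0.51 to 0.05, adjusted p = 0.467), without overlap. The sensor RIG-I is listed as Rigi in the rlog table and so is outside the 49. Under its older name Ddx58 it had 10 and 7 counts against 24 and 5, a log2FC of 0.88 (adjusted p = 0.495), with Il10-EGFP+ replicate 1 apart from the other libraries.

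The 250 bases before the start of Ddx60 (RefSeq, GRCm38.p6, chr8:61927837-61928086, plus strand) are shown because they held the core of the interferon-stimulated response element, a pair of GAAA runs with any 2 bases between them, in 2 places, written in capitals, which begin 53 and 19 bases before the start.
Ddx60: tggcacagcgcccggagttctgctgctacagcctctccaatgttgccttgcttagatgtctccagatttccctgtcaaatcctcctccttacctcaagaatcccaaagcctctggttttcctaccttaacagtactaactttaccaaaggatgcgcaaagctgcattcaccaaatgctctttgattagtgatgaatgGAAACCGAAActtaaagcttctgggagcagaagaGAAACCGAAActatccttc
Promoters of 300 bases, from 250 before to 50 after a start, were found for 43 of the 49 helicases, 54 promoters in all. On either strand, the paired GAAA runs were in 3 of the 54 (5.56%), 2 of Ddx49 and the 1 of Ddx60, against 3.44% of the 32851 mouse promoters of this length. The E-box CACGTG, which reads the same on both strands, was in 5 (9.26%) against 7.15% of all promoters, and 4 of these 5 belonged to splicing helicases. Of the 18 nucleolar promoters 1 held it, that of Dhx33. The motifs do not overlap each other, and a match is a run of letters and not a known site.

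Among the 6 other helicases none was called in edgeR, DESeq2 or limma. An unadjusted p under 0.05 in edgeR was found for 1 of them (16.7%), near the 15.5% of all genes tested. Dhx30 and Ddx28, which serve the mitochondrial ribosome, had 48 and 36 against 44 and 26 counts and 26 and 23 against 25 and 20 counts, with log2FCs of -0.15 and -0.02. Exons of Dhx30 overlap Smarcc1 on the other strand, and whether the counting used the strand is not stated. Ddx11, a DNA helicase of sister chromatid cohesion, had 20 and 11 counts against 22 and 23, a log2FC of 0.64 (standard error 0.41, adjusted p = 0.492) without overlap. Dhx32, with 14 and 9 counts against 5 and 2, had the lowest log2FC of the family at -1.57 (standard error 0.70, adjusted p = 0.251). With a library left out it ran from -2.41 to -1.01, and at -1.01, without Il10-EGFP+ replicate 2, it was above Dhx37 at -1.79 and Dhx34 at -1.70. Without Il10-EGFP− replicate 2 it was at -1.80, above Dhx34 at -1.98. Exons of Dhx32 overlap those of Bccip on the other strand, which had a log2FC of -0.52 (adjusted p = 0.233). Ddx43 and Ddx59 had at most 6 counts in a library and values of 0.09 and -0.06.

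**Figure D4:**
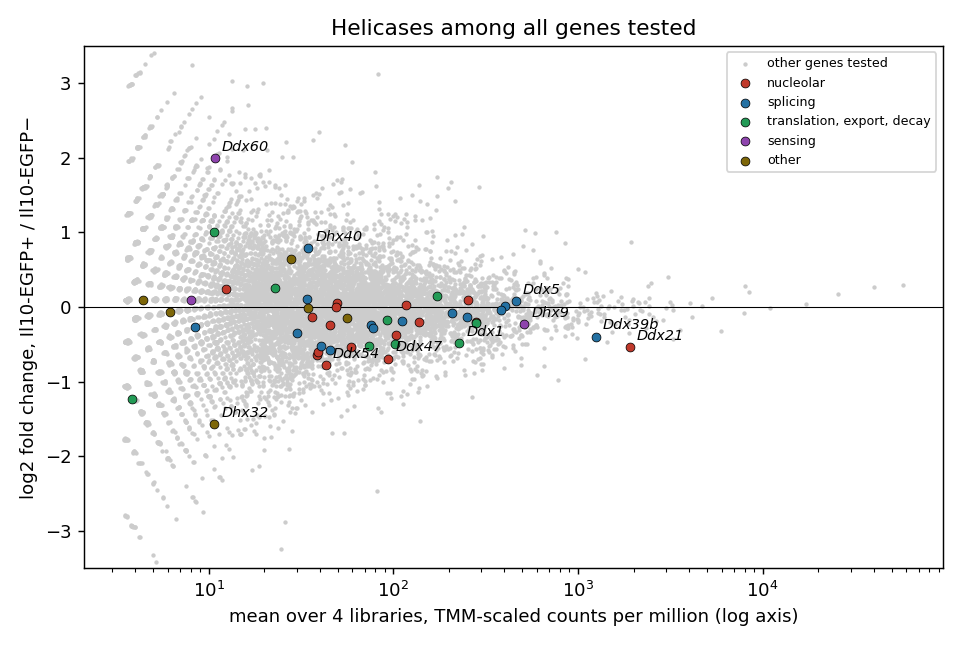
Mean level over the 4 libraries in TMM-scaled CPM (horizontal log axis) against the log2FC (vertical axis) of all 9608 genes tested, in grey, and of the 49 helicases, coloured by role. A total of 23 genes beyond 3.5 on the vertical axis are not drawn. Ddx21 and Ddx39b sit at the right edge of the family below 0, and Ddx60 and Dhx32, at 1.99 and -1.57, sit among genes of few counts.

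The depth set how much could be seen. The standard error of the log2FC ran from 0.118 for Ddx21 to 1.16 for Dhx34, with a median of 0.301. For 28 of the 49 helicases the 95% interval lay within a 2-fold change in both directions, among them 10 of the 16 nucleolar and 10 of the 15 splicing helicases. For the other 21 the interval reached past a 2-fold change. Over the settings that kept all 49, between 32 and 37 had a negative log2FC, with 33 under DESeq2's scaling and 36 when only library size was used.

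Helicases with other names and the cofactors of the family were measured beside them, to see the rest of the machinery. Of 22 other helicases, 1 was called higher, and of 34 cofactors, 2 were called lower, together 5.36% of these 56 genes, against 4.09% of all genes tested. With the replicate block the 56 gave 6 calls in edgeR and 0 in DESeq2, where 560 and 39 of all 9608 genes tested were called. Brip1, a DNA helicase that binds BRCA1, had 41 and 36 counts against 91 and 63, a log2FC of 1.11 (standard error 0.25, adjusted p = 0.00425, edgeR). Eif4b, the cofactor that stimulates the initiation helicase eIF4A, had 143 and 141 counts against 73 and 88, a log2FC of -0.72 (standard error 0.19, adjusted p = 0.0158). Gpatch4, a nucleolar protein with a G-patch, the domain that activates DEAH helicases, had 230 and 265 counts against 134 and 183 and a log2FC of -0.55 (standard error 0.16, adjusted p = 0.0378). All 3 lost their call in DESeq2, with adjusted p-values of 0.131, 0.209 and 0.278. With a library left out the adjusted p of Brip1 reached 0.252 (without Il10-EGFP+ replicate 1), that of Gpatch4 reached 0.376, and that of Eif4b was over 0.05 with any library left out.

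The eIF4A helicases themselves were not called. Eif4a1 and Eif4a2, which unwind messenger RNA at initiation, had log2FCs of -0.19 and -0.31 with adjusted p-values of 0.759 and 0.697, and Eif4a3, of the exon junction complex, had -0.37 (adjusted p = 0.142), each lower without overlap. Ifih1, which encodes the RNA sensor MDA5, had 0.54 (adjusted p = 0.674), and Mavs, the adaptor of the cytosolic sensors, had -0.06 (adjusted p = 0.983).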

How the data were processed

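CD4+ T cells positive for Nr4a3-Timer and either positive or negative for Il10-EGFP were profiled in 4 libraries, 2 per population. Per the labels and the methods, the authors aligned QuantSeq FWD reads to GRCm38 with STAR 2.5.2a, counted reads per Ensembl gene with HTSeq 0.6.0 and deposited these counts without normalization. Molecular identifiers were used, per the methods, to assess duplicates and remove amplification bias. The step at which reads were collapsed, the annotation release and the strand option are not given in the sources used here. The deposited rlog values, on a log2 scale, were made by the authors with DESeq2 from genes with at least 10 counts over all samples. Every per-sample column was used.

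The 9608 genes that reached 10 counts summed across the libraries entered edgeR 4.0.16 (R 4.3.3; TMM, default glmQLFit and glmQLFTest), with p-values adjusted by the Benjamini-Hochberg method over all genes tested and a threshold of 0.05. Standard errors were derived from the F statistic and the fold change, and 95% intervals from them and the degrees of freedom of the fit. Alternative tests used DESeq2 1.42.0 and limma 3.58.1. CPM are TMM-scaled. Totals were between 644679 and 730330 counts, so that genes with few counts have wide intervals. The methods speak of sorting from replicate mice and of a replicate pair, so replicates are taken as separate mice, but which libraries share a mouse is not stated. The fit as designed has no block.

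The helicases, role classes and gene lists were chosen with earlier results of these data known. Values per library are given for called helicases, for Ddx10, Ddx18, Ddx21, Ddx27, Ddx52 and Ddx56, and for the 3 most abundant and the most changed of each class. Cofactors and other helicases are named where called, besides Eif4a1, Eif4a2, Eif4a3, Ifih1 and Mavs. Other helicases named with values were chosen after these were seen. Positions are from GENCODE M21 (GRCm38) and promoters from RefSeq (GRCm38.p6). Transcript ends (the last 400 bases) were searched for sequences of 50 bases shared with other genes. Alternatives were other filters, scalings and tests, a replicate block, and each library left out. 1 gene of the B cell marker list is not reported here and was left out of its sum.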

Additional observations from a re-analysis of the deposited data

How the results depend on the processing

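Over 15 alternatives, between 0 and 3 helicases were called against 1 in the test as designed. The count was 2 with library size only, with no filter on low counts, with at least 10 counts in every library and in limma voom, in each case Ddx21 and Ddx39b. With each library left out the count ran from 0 to 2 for the helicases, from 0 to 1 for the nucleolar ones, from 0 to 2 for the 56 related genes and from 201 to 264 for all genes. The helicase count of 0 was without Il10-EGFP+ replicate 2. The 393 genes called in all became 112 in DESeq2's Wald test, 197 in limma on the rlog values and 39 with the replicate block in DESeq2, and DESeq2 left 4284 genes without an adjusted p unblocked and 6147 blocked. The 3 related genes called became 0 in DESeq2 and 1 in limma on the rlog values. The cause was not tested.

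Both populations use replicate numbers 1 and 2, and the methods speak of a replicate pair, without stating that libraries with the same number come from 1 mouse. Such libraries had deviations with a correlation of 0.0351 over 4965 genes, so the pairing is left unsettled and both fits are given. With the replicate block in edgeR, 3 helicases were called (Ddx21, Ddx39b and Ddx1), 6 related genes and 560 genes in all. With the block in DESeq2 there were 1 helicase (Ddx21), 0 related genes and 39 genes.

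The class medians stayed within the spread between replicates in 64 of 75 recomputations. The sensing median, of 3 genes, was 0.89 with filterByExpr (2 genes left) and -0.22 with at least 10 counts in every library (1 gene left), by construction. The latter filter moved the translation median to -0.34, and limma on the rlog values, which shrinks differences, moved the splicing median to -0.06 and the translation median to -0.07. With each library left out the medians ran from -0.50 to -0.21 (nucleolar), -0.24 to -0.07 (splicing), -0.35 to -0.08 (translation), -0.10 to 0.29 (sensing) and -0.19 to 0.18 (other). Depth limits what can be said of the 15 helicases with fewer than 100 counts.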
